A study of Xenopus tropicalis with 13 samples.

Results

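Whole embryos of the frog Xenopus tropicalis were compared one by one at stage 15, when the neural plate is folding into a tube. The comparison set 3 embryos that had received a morpholino (MO), an antisense oligonucleotide, against Taf15, labelled d, 4 and 6, beside 4 uninjected embryos, labelled d, 1, 3 and 5. These are 7 of the 13 embryos of the series, and the others were collected at stage 10. RNA was sequenced from each embryo after library preparation with a TruSeq RNA v2 kit, which selects polyadenylated RNA. The authors' deposited tables hold 2094 genes whose level differed between the groups and 1429 gene segments, called bins, that took a larger share of the reads of their gene in MO-injected embryos. All rows of both tables were taken. The labels name the treatment as MO injected and give no type of morpholino, no dose and no age in days. The study as a whole used translation-blocking, mismatch and splice-blocking morpholinos and CRISPR mutants, and none of the 7 embryos is labelled as a mismatch control or a mutant. The uninjected embryos received no injection. The uninjected embryo d carries stage 10 in its description but stage 15 in its title and its stage field, and was taken as the latter.

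Taf15 belongs to the FET family of RNA-binding proteins and is known to associate with the basal transcription factor TFIID and with nascent and spliced RNA. A morpholino pairs with its target RNA and blocks either its translation or its splicing. At the neurula stage, somites begin to form muscle, the neural plate is divided into forebrain, midbrain, hindbrain and spinal cord, and neural crest is specified along its border. RNA laid down in the egg and the signals of gastrulation are normally declining by then. The gene groups described here were chosen to cover those events and the general functions of a cell.

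At stage 15 the lists were led by a fall of muscle, synaptic and anterior neural genes. On the higher side they were led by Nodal and mesendoderm, oocyte and germ-line genes. The gene lists were chosen with earlier results of these data known, so this order is only a description. Of the 2094 listed genes, 944 rose and 1150 fell in MO-injected embryos, so 45.1% were higher. The table names no direction, and its fold change was read as MO-injected over uninjected because it rose with the raw bin counts described last. Each passed the authors' adjusted p of 0.1 and a change of at least 2-fold. The deposited p-values imply that at least 15917 genes were tested, of which at most 13.2% were listed, 5.93% as higher and 7.22% as lower. A total of 1326 listed genes carried a RefSeq protein-coding symbol, which is 8.48% of the 15628 such symbols, with 3.35% higher and 5.14% lower. These last shares are the background for the gene groups, whose members are counted as RefSeq symbols, and 39.4% of the symbols were higher. A gene absent from the list was not shown to be unchanged, because it may have missed either limit or may not have been measured.

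Most changes were modest, and large ones were about as frequent in either direction. The median log2 fold change was 1.72 among higher genes and -1.59 among lower genes in the authors' deposited table. A change of at least 4-fold was listed for 344 higher and 372 lower genes, one of at least 8-fold for 128 and 141, and one of at least 32-fold for 22 and 24. Genes with few reads had wider errors. With the list cut into 4 equal parts by mean normalised count, the lowest, up to 23.7, had a median absolute log2 fold change of 2.40 and a median standard error (SE) of 0.788 in the authors' deposited table. The highest, from 276 upwards, had 1.32 and 0.267. The share of higher genes was 50.8% and 51.9% in these outer parts and 40.7% and 36.9% in the inner ones. The mean normalised count is the same for all 53 genes also listed at stage 10, so it is taken over embryos of both stages and is not a level at stage 15. No value per embryo was given for expression, so the spread between embryos is seen only through the SE. A further 619 listed genes have only an identifier of the form Xetro, 37.7% of the higher and 22.9% of the lower genes, and are counted without being named.

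**Figure D1:**
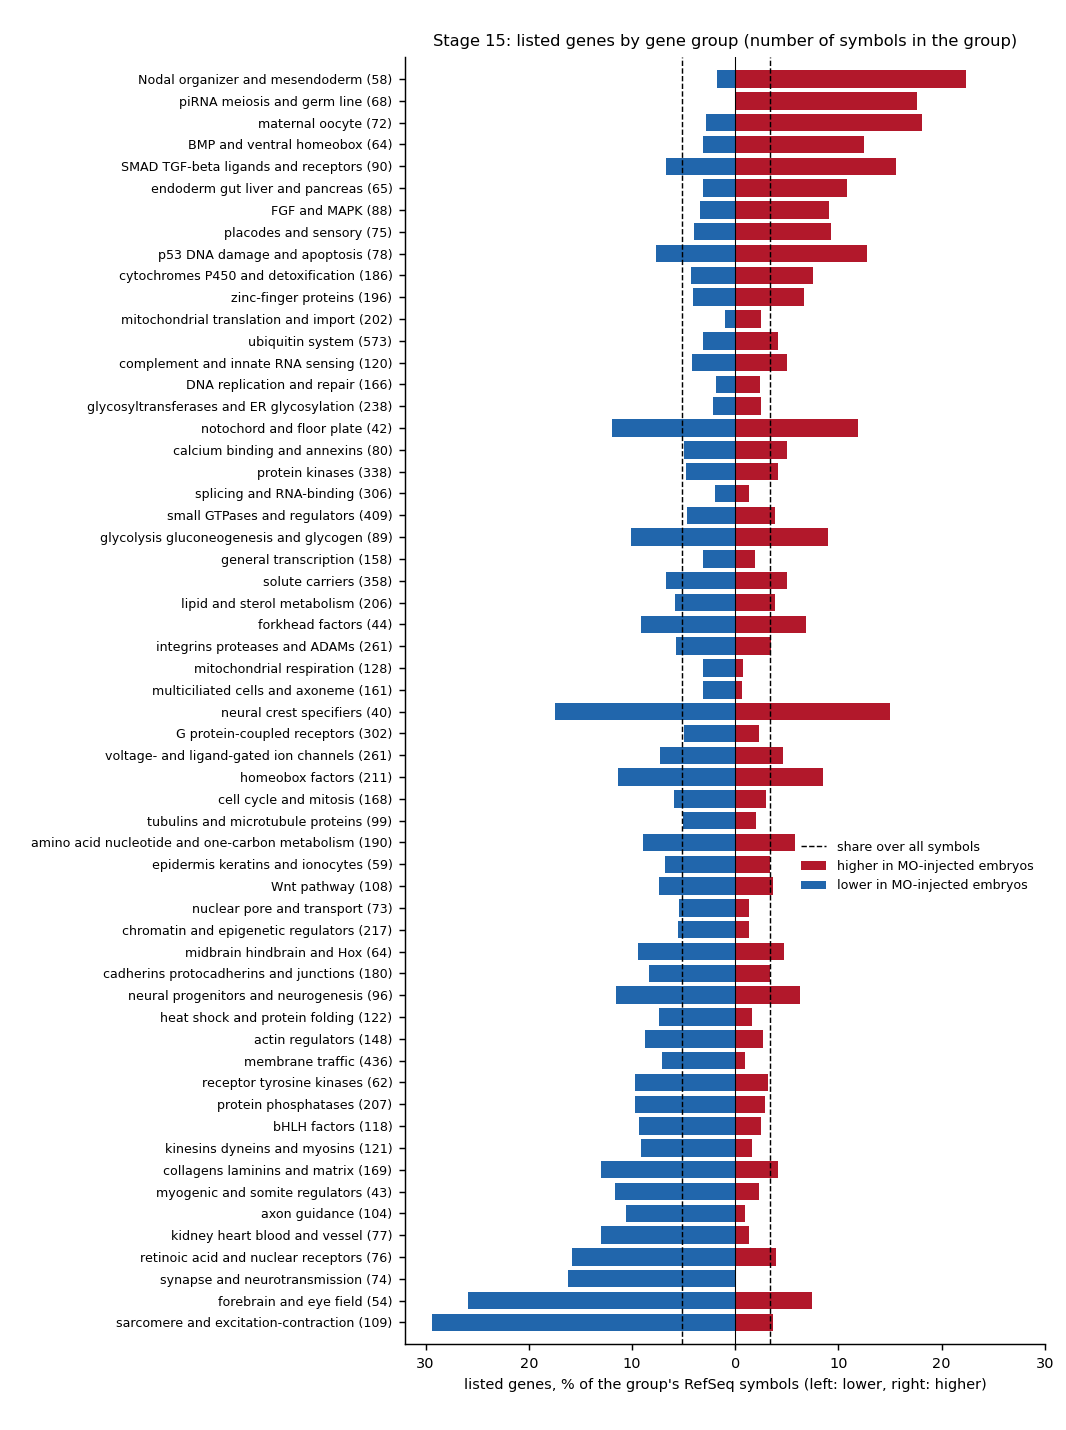
Share of each gene group's RefSeq symbols listed as higher (red, to the right) or lower (blue, to the left) in MO-injected embryos, for the 58 groups with 5 or more listed symbols; the number of symbols is in brackets and dashed lines mark the 3.35% and 5.14% over all symbols. Nodal, germ-line and oocyte groups lie at the top, with more higher genes, and the sarcomere, forebrain and synapse groups at the bottom.

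In all, 69 groups were counted, 35 as explicit lists and 34 as families defined by symbol patterns, and 814 of the 1326 listed symbols (61.4%) fell into at least 1 of them. Among the 58 groups with 5 or more listed symbols, 40 had more lower than higher genes, 16 had more higher genes and 2 were even. Since 39.4% of all listed symbols were higher, a group can lean to the lower side without differing from the whole list. A gene may stand in several groups, so the groups are not independent. No group was tested for enrichment. Because the lists were chosen with earlier results of these data known, a ranking of the groups is no independent evidence. A family can also hold genes that do not belong to it, and these were not removed. For example, prph2, a photoreceptor membrane protein, was counted with the intermediate filaments, and pdxdc1 with the homeobox factors. These 2 are named for that reason and not by their change.

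Muscle genes fell in a larger share than those of the other 68 groups, with 36 of 109 symbols listed, 4 higher and 32 lower. In whole embryos, fewer cells of a type and less RNA per cell cannot be told apart. The fast myosin heavy chain gene myh4 had the largest decrease of any listed gene, 249-fold, with a log2 fold change of -7.96, SE 0.379 (authors' adjusted p 1.12e-93) in the authors' deposited table. A second myosin heavy chain gene, myh1, was at -4.27, SE 0.841, the Z-disc gene pdlim3 at -4.43, SE 0.561 and synpo2, which encodes an actin-binding protein of the Z-disc, at -3.9, SE 0.638 in the authors' deposited table. The 32 genes that fell span thick and thin filaments, troponins, the Z-disc, the junctions between surface membrane and calcium store, the muscle acetylcholine receptor and creatine kinase. The authors' deposited table put the skeletal alpha-actin gene acta1 at 1.73, SE 0.269, the alpha-actinin gene actn2 at 1.91, SE 0.808 (authors' adjusted p 0.0742) and kbtbd13, a kelch-repeat gene of muscle, at 5.98, SE 1.05, and all 3 rose. The fourth that rose, mylk3, had a mean normalised count under 10. The related gene actn3 fell, at -1.91, SE 0.158 (authors' adjusted p 1.59e-30) in the authors' deposited table, so 2 alpha-actinin genes of muscle moved in opposite directions.

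Regulators of the muscle and somite lineages were listed less densely, with 6 of 43 symbols listed, 1 higher and 5 lower. The sclerotome gene pax1 was at -2.62, SE 0.601, the muscle-differentiation factor gene myog at -2.28, SE 0.531, tcf21, a bHLH gene of head and visceral mesoderm, at -2.17, SE 0.747, and pax7 at -1.96, SE 0.648 in the authors' deposited table. The member that rose was cer1, which encodes the secreted antagonist Cerberus, at 1.3, SE 0.477 in the authors' deposited table. It is a gene of anterior endomesoderm and not of muscle. Listed genes of the heart, kidney, blood and vessels were mostly lower, with 11 of 77 symbols listed, 1 higher and 10 lower. In the authors' deposited table the endothelial gene egfl7 was at -3.52, SE 0.975, the kidney cotransporter gene slc12a1 at -1.61, SE 0.44, the muscle and heart factor gene mef2c at -1.55, SE 0.365 and the cardiac homeobox gene nkx2-5 at -1.42, SE 0.23. The member that rose was isl1, which is also a factor of sensory and motor neurons, and whose listed bin is described further on.

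Listed genes of the cytoskeleton, matrix and adhesion families were mostly lower too. Of the collagens, laminins and other matrix proteins, 29 of 169 symbols were listed, 7 higher and 22 lower. In the authors' deposited table, the largest decreases belonged to the basement membrane gene frem1 (-3.53, SE 0.477), the collagen gene col6a3 (-3.42, SE 0.58) and cd44, which encodes a receptor for hyaluronan (-3.1, SE 0.481). The collagen gene col6a1, whose product assembles with that of col6a3, rose instead and was at 1.1, SE 0.322 in the authors' deposited table. Also higher were fbln5, an elastic fibre gene, at 5.19, SE 0.699 and the matrix gene chad at 3.03, SE 0.507 in the authors' deposited table. Among actin regulators, 17 of 148 symbols were listed, 4 higher and 13 lower, and several of them stand on the muscle list too. The actin gene acta2 of smooth and early striated muscle was at -3.02, SE 0.739 and the caldesmon gene cald1 at -2.24, SE 0.657, while the coronin gene coro2b was at 2.49, SE 0.562 and arpc1a, an Arp2/3 subunit, at 1.03, SE 0.224 in the authors' deposited table. Kinesins, dyneins and myosins were similar, with 13 of 121 symbols listed, 2 higher and 11 lower. The largest decreases of this family were those of myh4 and myh1, so it partly repeats the muscle list. The neuronal kinesin gene kif5a was at -2.73, SE 0.662, and the mitotic kinesin gene kif14 rose to 1.89, SE 0.368 in the authors' deposited table. For cadherins, protocadherins and junction proteins, 21 of 180 symbols were listed, 6 higher and 15 lower. They included the adhesion genes cadm4 (-3.11, SE 0.693) and cntnap2 (-2.39, SE 0.50) and the endothelial claudin gene cldn5 (-2.23, SE 0.672) on the lower side, and cldn15.2 (2.04, SE 0.601) and the connexin gene gjb7 (1.86, SE 0.285) on the higher side of the authors' deposited table.

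Synaptic genes moved in a single direction, with 12 of 74 symbols listed, none higher and 12 lower. They cover transmitter synthesis, vesicle release and the postsynaptic side. The neuropeptide gene sst was at -4.76, SE 0.828, and the catecholamine enzyme genes dbh and th were at -3.49, SE 0.835 and -2.17, SE 0.542 in the authors' deposited table. Axon guidance genes were similar, with 12 of 104 symbols listed, 1 higher and 11 lower. The netrin receptor gene dcc was at -3.6, SE 1.02, the semaphorin genes sema3b at -2.99, SE 0.572 and sema5b at -1.52, SE 0.494, and slitrk3, the member that rose, was at 1.17, SE 0.46 (authors' adjusted p 0.0513) in the authors' deposited table. Ion channels were mixed, with 31 of 261 symbols listed, 12 higher and 19 lower. In the authors' deposited table the glutamate receptor gene gria1 was at -5.63, SE 0.771 and the calcium-activated potassium channel gene kcnn3 at -3.83, SE 0.652, whereas the calcium channel gene cacna1a was at 2.8, SE 0.756 and ano10 at 2.51, SE 0.247. Among G protein-coupled receptors, 22 of 302 symbols were listed, 7 higher and 15 lower, led on the lower side by the endothelin receptor gene ednra at -3.5, SE 1.01 in the authors' deposited table.

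**Figure D2:**
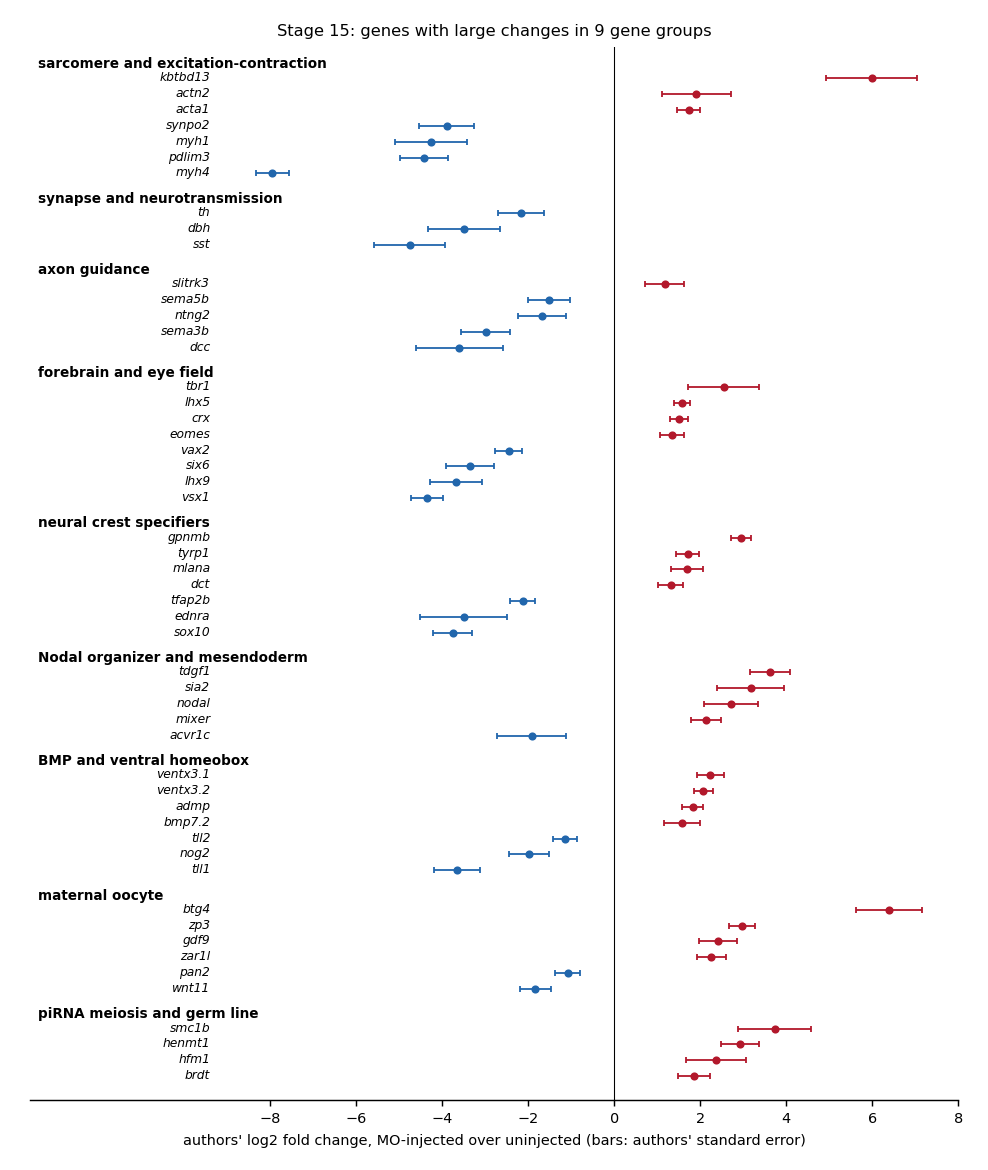
Log2 fold change (MO-injected over uninjected) with the authors' standard error for up to 4 genes in each direction of 9 gene groups, red for higher and blue for lower. The synapse and germ-line groups lie on 1 side of 0 each, and the neural crest group on both, with its pigment genes higher and sox10 at -3.77.

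In the forebrain and eye field list, 18 of 54 symbols were listed, 4 higher and 14 lower. The retinal homeobox gene vsx1 was at -4.35, SE 0.372 (authors' adjusted p 2.46e-28), and the eye and forebrain homeobox genes lhx9, six6 and vax2 were at -3.67, -3.36 and -2.45 in the authors' deposited table. The 4 that rose were tbr1 (2.54, SE 0.826), lhx5 (1.57, SE 0.195), crx (1.5, SE 0.206) and eomes (1.33, SE 0.277) in the authors' deposited table. Of these, eomes also acts in gastrula mesendoderm. Further back, with 9 of 64 symbols listed, 3 higher and 6 lower, the hindbrain gene egr2 fell 38.5-fold, to a log2 fold change of -5.27, SE 0.301 (authors' adjusted p 1.18e-64), and the midbrain-hindbrain gene en2 was at -2.42, SE 0.335 in the authors' deposited table. The 3 that rose were hoxd4 (1.25, SE 0.223), cdx1 (1.13, SE 0.222) and the retinoic acid hydroxylase gene cyp26a1 (1.05, SE 0.292) in the authors' deposited table. Its relative cyp26c1 fell, at -2.14, SE 0.268 in the authors' deposited table. Hox genes were found on both sides, since hoxc3 was at -1.77, SE 0.693 in the authors' deposited table.

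Progenitor and neurogenesis genes were divided, with 17 of 96 symbols listed, 6 higher and 11 lower. The homeobox and POU genes dbx1 (-1.95, SE 0.345), gsx2 (-1.9, SE 0.595) and pou3f4 (-2.57, SE 0.538) and the spinal cord gene prdm13 (-2.42, SE 0.62) fell in the authors' deposited table. The dorsal spinal cord gene olig3 (2.03, SE 0.333), tlx1 (1.59, SE 0.316), isl1 (1.25, SE 0.276) and the neurogenic growth-arrest gene gadd45g (1.08, SE 0.287) were higher in the authors' deposited table. Placode and sensory genes leaned the other way, with 10 of 75 symbols listed, 7 higher and 3 lower. Those that rose included 2 genes of photoreceptor signalling, guca1a at 2.76, SE 1.06 and cngb1 at 1.71, SE 0.536, and those that fell included the olfactory marker gene omp at -1.06, SE 0.463 (authors' adjusted p 0.0849) in the authors' deposited table.

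The neural crest list was divided, with 13 of 40 symbols listed, 6 higher and 7 lower. Those that fell included transcription factor and receptor genes of migrating crest and its derivatives: sox10 was at -3.77, SE 0.445 (authors' adjusted p 6.44e-15), the endothelin receptor gene ednra at -3.5, SE 1.01 and tfap2b at -2.13, SE 0.291 in the authors' deposited table. Among the 6 that rose, 4 are genes of pigment cells. The melanosome glycoprotein gene gpnmb was 7.75-fold higher, at 2.95, SE 0.235 (authors' adjusted p 6.69e-33), and the melanin enzyme genes tyrp1 and dct and the melanosome gene mlana were at 1.7, SE 0.26, 1.31, SE 0.289 and 1.68, SE 0.372 in the authors' deposited table. The 4 pigment genes were those with the largest increases of the list. The crest factor gene snai1, at 1.06, SE 0.145 in the authors' deposited table, also rose. The homeobox gene phox2a of autonomic neurons rose too, at 1.17, SE 0.239 in the authors' deposited table, and lies outside the naming rule. It also has a listed bin.

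The Nodal list holds genes of the Nodal pathway, which induces mesoderm and endoderm at gastrulation, together with organizer and mesendoderm genes. It was mostly higher, with 14 of 58 symbols listed, 13 higher and 1 lower. A further 4 were listed as higher under names that RefSeq does not use. The co-receptor gene tdgf1 was 12.2-fold higher, at 3.61, SE 0.463 (authors' adjusted p 8.75e-13), and the ligand gene nodal was at 2.72, SE 0.633 in the authors' deposited table. Among transcription factor genes of the list, the homeobox genes sia2 and mixer were at 3.17, SE 0.784 and 2.14, SE 0.345 in the authors' deposited table. The member that fell was the receptor gene acvr1c, at -1.92, SE 0.80 (authors' adjusted p 0.0685) in the authors' deposited table. The endoderm list, which shares mixer, mix1, vegt and others with it, had 9 of 65 symbols listed, 7 higher and 2 lower. The shared genes vegt and mix1 were at 1.77, SE 0.155 and 1.56, SE 0.468, and the secreted Wnt antagonist gene frzb at 1.67, SE 0.318, in the authors' deposited table. The 2 that fell, itih3 (-2.9, SE 1.05) and hnf4g (-1.81, SE 0.593) in the authors' deposited table, are known from differentiated liver and gut.

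In the BMP and ventral homeobox list, 10 of 64 symbols were listed, 8 higher and 2 lower, with 1 more in each direction under other names. All 6 ventx genes, ventral homeobox genes that respond to BMP, rose, and they lie next to each other as 1 run of the annotation. Their log2 fold changes in the authors' deposited table were 2.23 for ventx3.1, 2.07 for ventx3.2, 1.52 for ventx2.1, 1.44 for ventx2.2, 1.42 for ventx1.1 and 1.33 for ventx1.2, the last 4 being named for that run and not by the rule. They are near copies of one another, and the way reads were divided between copies by the authors' counting was not given in the sources used here. Among BMP-like ligand genes, admp and bmp7.2 were also higher, at 1.82, SE 0.242 and 1.58, SE 0.42 in the authors' deposited table. The BMP antagonist genes were on both sides, nog2 at -1.99, SE 0.464 and chrd, named outside the rule to complete the antagonists, at 1.05, SE 0.225 in the authors' deposited table. The genes tll1 and tll2, whose proteases cleave the BMP inhibitor chordin, both fell and were at -3.65, SE 0.533 and -1.15, SE 0.287 in the authors' deposited table. The wider family of TGF-beta ligands, receptors and SMADs had 20 of 90 symbols listed, 14 higher and 6 lower. Its symbol pattern also takes in ventx3.1, ventx3.2, nog2 and tll1, which are none of these. Its counts therefore partly repeat those of the BMP list. Among those lower was the ligand gene tgfb1, at -1.64, SE 0.504 in the authors' deposited table.

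Other signalling pathways differed in their balance. For FGF and MAP kinase genes, 11 of 88 symbols were listed, 8 higher and 3 lower. The inhibitor gene spred3 (1.97, SE 0.327), the receptor gene fgfr4 (1.86, SE 0.211) and the immediate early genes fos (1.8, SE 0.263) and fosl2 (1.16, SE 0.369) were higher, and nab2, a repressor of early growth response factors, fell (-4.26, SE 0.543) in the authors' deposited table. For the Wnt pathway, 12 of 108 symbols were listed, 4 higher and 8 lower. Its nuclear effector gene tcf7l2 was at -3.8, SE 0.418, the cytoplasmic effector gene dvl1 at -2.98, SE 0.78 and the ligand genes wnt10b and wnt9b at -3.11 and -2.08, while the ligand gene wnt3a was at 1.38, SE 0.27 and the agonist gene rspo3 at 1.06, SE 0.209 in the authors' deposited table. The Notch and Hedgehog list, which does not hold the listed Hedgehog effector gene gli1.2, had 2 of 64 symbols listed, 1 higher and 1 lower: the ligand gene ihh at 1.65, SE 0.641 and the Hedgehog-binding gene hhip at -1.54, SE 0.49 in the authors' deposited table. Receptor tyrosine kinases had 8 of 62 symbols listed, 2 higher and 6 lower. The neuronal kinase gene alk was at -6.1, SE 1.33, musk, the kinase of the neuromuscular junction, at -3.13, SE 0.522, and mst1r at 1.39, SE 0.186 in the authors' deposited table. Retinoic acid and nuclear receptor genes were mostly lower, with 15 of 76 symbols listed, 3 higher and 12 lower. They included the orphan receptor gene rorb (-3.85, SE 0.799), the retinol dehydrogenase gene rdh11 (-3.69, SE 0.57) and the coactivator gene ncoa1 (-3.12, SE 0.41), against a rise of the oestrogen receptor gene esr2 (4.61, SE 1.11) and the retinoid receptor gene rxrg (1.6, SE 0.447) in the authors' deposited table.

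Genes of the oocyte were higher, with 15 of 72 symbols listed, 13 higher and 2 lower and 2 more, both higher, under other names. The deadenylation adaptor gene btg4 was 83.6-fold higher, at 6.39, SE 0.777 (authors' adjusted p 4.22e-14), in the authors' deposited table. The egg coat gene zp3 (2.97, SE 0.303), the oocyte growth factor gene gdf9 (2.4, SE 0.442) and zar1l (2.26, SE 0.342) followed in the authors' deposited table. The 2 that fell were the ligand gene wnt11 (-1.84, SE 0.362) and the deadenylase gene pan2 (-1.09, SE 0.293) in the authors' deposited table, and both also act after the egg stage. The germ line list was wholly on the higher side, with 12 of 68 symbols listed, 12 higher and none lower. It spans meiosis and the piRNA pathway that silences transposons. The meiotic cohesin gene smc1b was at 3.73, SE 0.843, the piRNA methyltransferase gene henmt1 at 2.92, SE 0.443, the meiotic helicase gene hfm1 at 2.37, SE 0.70 and the bromodomain gene brdt of spermatocytes at 1.86, SE 0.373 in the authors' deposited table. Histone genes were listed only under names that RefSeq does not use, 5 in all and each higher. They included hist1h2al (2.53, SE 0.789), hist1h2bk (1.43, SE 0.419) and h2afj (1.06, SE 0.30) in the authors' deposited table. Histone genes are near-identical copies, and many of their transcripts carry no poly(A) tail, so these values are uncertain.

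**Figure D3:**
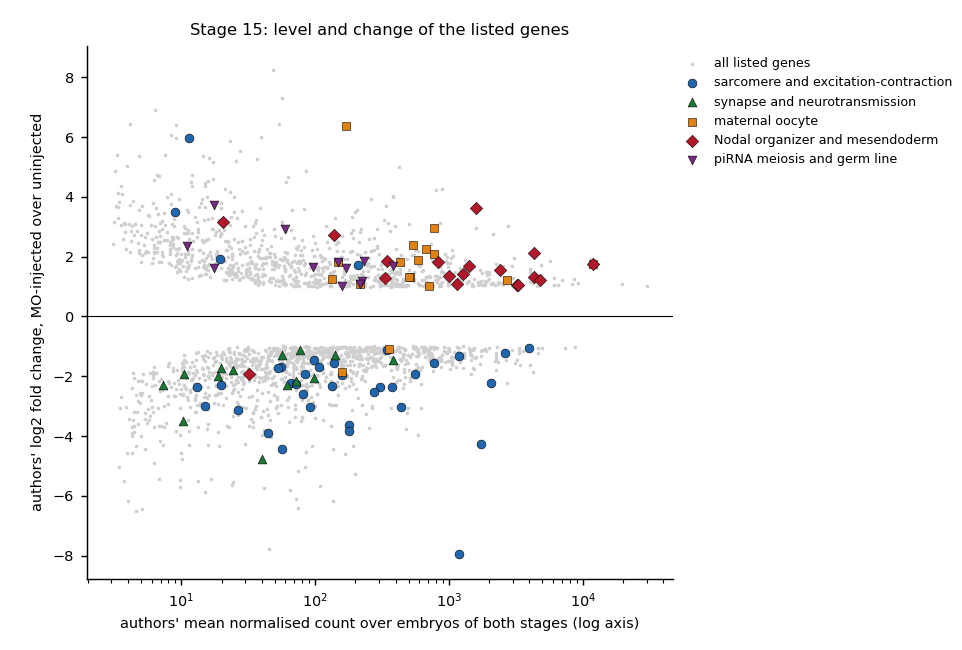
Log2 fold change (MO-injected over uninjected) against the authors' mean normalised count on a log axis, 1 point per listed gene, with 5 gene groups marked. Oocyte and Nodal genes lie above 0 except for wnt11, pan2 and acvr1c, and all but 4 RefSeq muscle genes lie below it, with myh4 the lowest point at -7.96.

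The remaining tissue lists held few genes. Epidermis, keratin and ionocyte genes had 6 of 59 symbols listed, 2 higher and 4 lower. The ionocyte proton pump gene atp6v1b1 was at -1.99, SE 0.53, the crosslinking enzyme gene tgm1 at -1.68, SE 0.457 and the skin lectin gene itln1 at -1.22, SE 0.44, while the Kruppel-like genes klf2 and klf4 were at 2.06, SE 0.303 and 1.67, SE 0.562 in the authors' deposited table. Among multiciliated cell and axoneme genes, 6 of 161 symbols were listed, 1 higher and 5 lower, a share below the background in both directions. The axoneme gene spag17 was an exception in size, 71.9-fold lower at -6.17, SE 0.648 (authors' adjusted p 9.08e-19), and gmnc, which starts the multiciliated programme, rose to 2.04, SE 0.707 in the authors' deposited table. The notochord and floor plate list was even, with 10 of 42 symbols listed, 5 higher and 5 lower. On the higher side foxa4 was at 1.24, SE 0.169 and chad at 3.03, SE 0.507, and on the lower side ctgf was at -2.68, SE 0.412 in the authors' deposited table. With the list for cement and hatching glands, 1 of 16 symbols was listed, the proton pump gene atp12a, at 1.03, SE 0.346 in the authors' deposited table.

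Transcription factor families differed in their balance. Homeobox genes were listed at 19.9% of 211 symbols, with 18 higher and 24 lower. All 4 listed Sox genes fell, of 20, and besides sox10 they were sox1 (-1.67, SE 0.447), sox21 (-1.25, SE 0.198) and sox8 (-1.09, SE 0.253) in the authors' deposited table. The bHLH factors were mostly lower, with 3 higher and 11 lower of 118. They included bhlha9 (-3.18, SE 0.649) and tal2 (-2.64, SE 0.676), against a rise of olig3, in the authors' deposited table. The circadian gene per2 (1.03, SE 0.389 in the authors' deposited table) was counted among the higher ones too, although its protein has no bHLH domain. T-box genes went the other way, with 3 higher and 1 lower of 19 and the mesodermal gene t higher under a name RefSeq does not use, at 1.05, SE 0.153 in the authors' deposited table; tbx22 fell, at -2.71, SE 0.622 in the authors' deposited table. Forkhead genes had 3 higher and 4 lower of 44. The gastrula genes foxh1.2 (1.86, SE 0.714) and foxd4l1.1 (1.01, SE 0.223) rose and foxd1 (-1.73, SE 0.261) of the forebrain fell in the authors' deposited table. Zinc-finger proteins had 13 higher and 8 lower of 196, with znf33a (2.86, SE 0.664) and znf16 (-2.45, SE 0.402) as examples from the authors' deposited table.

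Genes of the p53 response and of apoptosis were listed at 20.5% of 78 symbols, with 10 higher and 6 lower. The tumour necrosis factor receptor family gene eda2r was at 3.91, SE 0.978 and the cyclin gene ccng1, a p53 target, at 3.03, SE 0.918. The caspase gene casp10 was at 2.06, SE 0.413 and the stress gene tp53inp1 at 1.96, SE 0.357 in the authors' deposited table. Among the 6 that fell, 3 belong to the tumour necrosis factor branch. They are the receptor genes tnfrsf1a (-3.47, SE 0.701) and fas (-1.56, SE 0.498) and the adaptor gene tradd (-1.26, SE 0.381) in the authors' deposited table. Since eda2r, of the same receptor family, rose, that family lay on both sides. Cell cycle genes were near the background, with 15 of 168 symbols listed, 5 higher and 10 lower. They included cdc23, a subunit of the anaphase-promoting complex (-2.4, SE 0.293), ccna1 (-1.76, SE 0.268) and the checkpoint gene mad2l1 (-1.71, SE 0.358) on the lower side of the authors' deposited table. Replication and repair genes were listed below the background, with 7 of 166 symbols listed, 4 higher and 3 lower. The origin recognition gene orc3 was at 1.12, SE 0.178, the base excision gene apex2 at -2.63, SE 0.373 and the maintenance DNA methyltransferase gene dnmt1 at -1.04, SE 0.167 in the authors' deposited table. The uninjected embryos were not injected, so effects of injection itself cannot be told apart from those of Taf15 depletion for any of these genes.

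Several groups of the general machinery of gene expression had a smaller share of listed symbols than the 8.48% over all symbols, a difference that was not tested. Ribosomal proteins and translation factors had 3 of 156 symbols listed, 2 higher and 1 lower. Splicing and RNA-binding genes had 10 of 306 symbols listed, 4 higher and 6 lower. On the lower side were rbm23 (-3.0, SE 0.281), the survival motor neuron complex genes gemin7 (-1.64, SE 0.523) and smn2 (-1.44, SE 0.208) and the spliceosome gene prpf19 (-1.32, SE 0.14) in the authors' deposited table. On the higher side were upf3a (2.2, SE 0.58) of nonsense-mediated decay and the splicing regulator gene hnrnph1 (1.03, SE 0.151) in the authors' deposited table. General transcription had 8 of 158 symbols listed, 3 higher and 5 lower, including the TFIID subunit gene taf4b of the germ line (1.5, SE 0.267) and the Mediator gene med27 (-1.79, SE 0.257) in the authors' deposited table. Chromatin regulators had 15 of 217 symbols listed, 3 higher and 12 lower. The Polycomb gene phf1 (-1.54, SE 0.262) fell and npm2 (1.88, SE 0.286), the egg histone chaperone, rose in the authors' deposited table. Nucleolar genes had 3 of 115 symbols listed, 1 higher and 2 lower. The ribosome assembly gene nvl fell 15.6-fold (-3.96, SE 0.234, authors' adjusted p 6.93e-61) in the authors' deposited table. Nuclear pore and transport genes had 5 of 73 symbols listed, 1 higher and 4 lower, with nup155 (-1.5, SE 0.173) and nup93 (-1.4, SE 0.15) lower and the importin gene kpna7 of the egg higher (1.23, SE 0.204) in the authors' deposited table. Both nucleoporin genes also have a listed bin.

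Metabolic genes were mostly divided. Glycolysis, gluconeogenesis and glycogen genes were listed at 19.1% of 89 symbols, with 8 higher and 9 lower. The fructose-bisphosphatase gene fbp2 was at 4.67, SE 0.573 and gpi at 1.44, SE 0.206 in the authors' deposited table. On the lower side pgam2 and phkg1 were at -4.35, SE 0.92 and -4.35, SE 0.757 and the glucose transporter gene slc2a3 at -4.76, SE 1.42 in the authors' deposited table. Since fbp2, pgam2 and phkg1 are all muscle isoform genes, such genes lay on both sides. Lipid and sterol genes had 20 of 206 symbols listed, 8 higher and 12 lower. The prostaglandin synthase genes moved apart, with ptgs2 at 1.67, SE 0.266 and ptgs1 at -2.04, SE 0.374, and the lipid carrier gene apoe was at -3.07, SE 0.475 in the authors' deposited table. Among cytochromes P450 and detoxification enzymes, 22 of 186 symbols were listed, 14 higher and 8 lower. Examples are the sulfotransferase gene sult2b1 (3.15, SE 0.553) and fmo1 (2.27, SE 0.801), against the methyltransferase gene comt (-2.0, SE 0.778), in the authors' deposited table. For amino acid, nucleotide and one-carbon metabolism, 28 of 190 symbols were listed, 11 higher and 17 lower. Enzymes of serine synthesis fell, phgdh to -1.68, SE 0.217 and psat1 to -1.66, SE 0.347, and the aminotransferase gene got2 rose to 1.98, SE 0.212 in the authors' deposited table. Mitochondrial respiration had 5 of 128 symbols listed, 1 higher and 4 lower and mitochondrial translation and import 7 of 202 symbols listed, 5 higher and 2 lower, both below the background in all. Solute carriers had 42 of 358 symbols listed, 18 higher and 24 lower. In that family the organic anion transporter gene slc22a13 had the largest increase of any listed gene, 306-fold, at 8.26, SE 0.977, and the glial glutamate transporter gene slc1a3 was at -2.98, SE 0.554, in the authors' deposited table.

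Membrane traffic leaned to the lower side, with 35 of 436 symbols listed, 4 higher and 31 lower. The genes that fell cover coats, tethers, SNAREs and caveolae, such as the small GTPase gene rab30 (-2.33, SE 0.278) and the caveolin gene cav1 (-1.99, SE 0.36) in the authors' deposited table. Those that rose included the atlastin gene atl1 (1.73, SE 0.359) and the small GTPase genes rab20 (1.32, SE 0.369) and rab12 (1.32, SE 0.282) in the authors' deposited table. Small GTPases and their regulators had 35 of 409 symbols listed, 16 higher and 19 lower. In the authors' deposited table rasl11a was at 2.63, SE 0.354 and rhobtb2 at -2.58, SE 0.617. The family also takes in rgs16, at 2.64, SE 0.391 in the authors' deposited table, which regulates heterotrimeric G proteins and not small GTPases. Protein phosphatases had 26 of 207 symbols listed, 6 higher and 20 lower, including the phosphatase inhibitor genes ppp1r1a (-3.97, SE 0.711) and ppp1r1b (-3.87, SE 0.715) and, on the higher side, the glycogen-targeting subunit gene ppp1r3c.2 (1.72, SE 0.191) in the authors' deposited table. Protein kinases had 30 of 338 symbols listed, 14 higher and 16 lower, with the autophagy kinase gene ulk1 at 2.42, SE 0.542 and the AMP kinase subunit gene prkag1 at -3.07, SE 0.487 in the authors' deposited table. The ubiquitin system had 42 of 573 symbols listed, 24 higher and 18 lower. Its lower side included the muscle ligase genes trim63 (-3.04, SE 0.49) and trim55 (-1.95, SE 0.249), and its higher side lonrf3 (2.75, SE 0.47) and trim39 (3.64, SE 0.76), in the authors' deposited table. Heat shock and folding genes had 11 of 122 symbols listed, 2 higher and 9 lower. Those that fell included the small heat shock gene hspb8 (-2.75, SE 0.535) and the co-chaperone gene bag2 (-2.34, SE 0.243) in the authors' deposited table. The prolyl hydroxylase gene egln2 (-2.59, SE 0.383 in the authors' deposited table) is also on this list and is not a chaperone gene. Complement and innate sensing genes had 11 of 120 symbols listed, 6 higher and 5 lower. The interferon-induced gene ifit5 (4.16, SE 0.714) and the complement receptor gene c3ar1 (3.14, SE 1.06) rose and the complement genes c5 (-1.47, SE 0.221) and cfb (-1.12, SE 0.324) fell in the authors' deposited table.

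The families not yet named held few genes or were divided. Integrins, proteases and ADAMs had 24 of 261 symbols listed, 9 higher and 15 lower, with the muscle integrin gene itga7 at -1.92, SE 0.309 and the matrix protease gene mmp2 at -1.55, SE 0.679 on the lower side of the authors' deposited table. Tubulins and microtubule proteins had 7 of 99 symbols listed, 2 higher and 5 lower, and keratins and intermediate filaments 4 of 61 symbols listed, 1 higher and 3 lower. The filament gene vim of mesenchyme and neural progenitors was among the latter, at -1.18, SE 0.392 in the authors' deposited table. Glycosyltransferases had 11 of 238 symbols listed, 6 higher and 5 lower. The sulfatase gene sulf2, which trims heparan sulfate, was at -3.0, SE 0.376 in the authors' deposited table. Calcium-binding proteins and annexins were even, with 8 of 80 symbols listed, 4 higher and 4 lower. The annexin genes anxa5, at 1.5, SE 0.295, and anxa1, at -1.36, SE 0.449, were on opposite sides of the authors' deposited table.

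Genes with the highest mean normalised counts changed by 2.01- to 4.40-fold, over the first 15 in each direction. That count is not divided by gene length, so it ranks reads and not molecules. Among higher genes it was highest for hnrnph1, at 30090.3, and vegt, at 12007, with log2 fold changes of 1.03 and 1.77 in the authors' deposited table. They were followed by the ribonucleotide reductase gene rrm2.2 (1.13, SE 0.267), the Hedgehog effector gene gli1.2 (1.25, SE 0.181), the lysosomal protease gene ctsb (1.08, SE 0.133) and the epithelial-to-mesenchymal factor gene snai1 (1.06, SE 0.145) in the authors' deposited table. Among lower genes it was highest for the co-chaperone gene ptges3, at 8699 with a log2 fold change of -1.03, SE 0.213, in the authors' deposited table. The cartilage and notochord collagen gene col2a1 (-1.04, SE 0.228), the actin regulator gene coro1c (-1.84, SE 0.15), the cytolinker gene plec (-1.62, SE 0.234), the fast myosin light chain gene mylpf (-1.07, SE 0.332), the cytokinesis kinesin gene kif23 (-1.16, SE 0.136) and the RNA exonuclease gene xrn1 (-1.12, SE 0.147) were also among the first 15 in the authors' deposited table.

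The other question was which parts of transcripts were used differently. A bin is a piece of a gene between the ends of its annotated or assembled exons, and its usage is its reads relative to the rest of the gene. The table holds 1429 bins in 1046 genes. All have at least 2-fold more usage in MO-injected embryos, so the list is bounded in size and direction, and nothing is read from its single direction. The deposited p-values imply at least 192075 bins tested, so at most 0.744% were listed. Of the RefSeq symbols, 817 have a listed bin, which is 5.23% of them. The bins were chosen on the counts described here, so those counts carry no test. Reads over the listed bins summed to 50451, 74936 and 83767 in the MO-injected embryos and to 6020, 4922, 8389 and 7024 in the uninjected ones. These are not library sizes, which are unknown, and the raw counts are not scaled for depth. The count columns are numbered and the labels do not tie a number to an embryo. In 1079 of the bins (75.5%) every MO-injected embryo had more reads than every uninjected embryo, and in 229 no uninjected embryo had a read. The median log2 ratio of mean raw counts, with 0.5 added to each mean, was 2.72, and the median of the log2 usage ratio was 1.75 in the authors' deposited table. The usage ratio rests on fitted scores of a scale not given in the sources used here, so the ratios are not compared in size.

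Bins were short and mostly alone in their gene. The median width was 180 bases and the median of the mean raw count was 6.86. A single bin was listed for 844 genes, 2 for 143, 3 for 31 and 4 or more for 28. Of the 202 genes with 2 or more listed bins, 126 had bins with consecutive numbers, that is next to each other in the gene. The first number of their gene was borne by 142 bins (9.94%). How often consecutive or first numbers occur among all bins tested was not known, so both counts are descriptions.

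**Figure D4:**
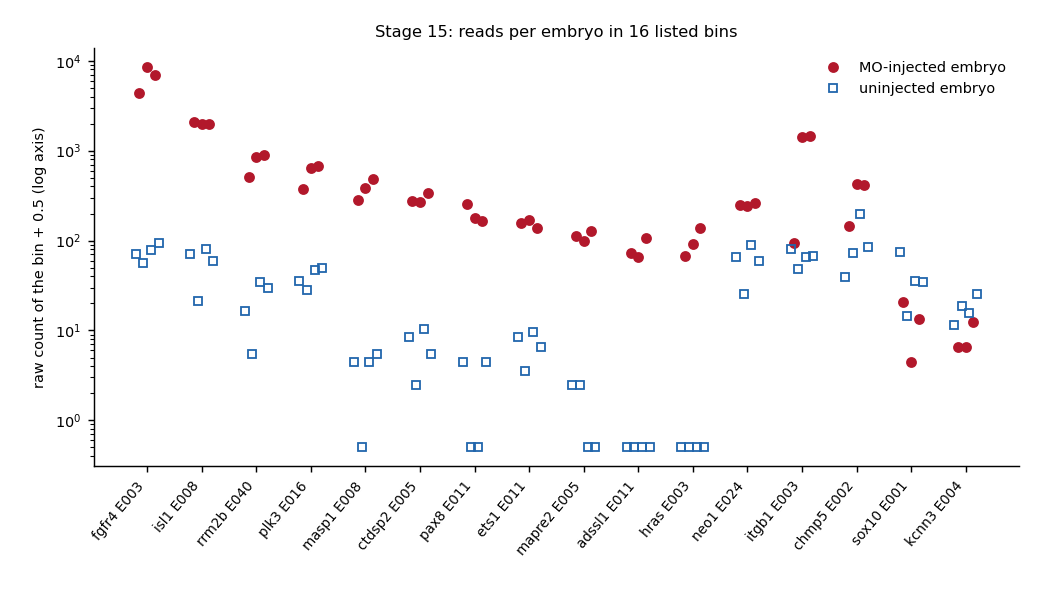
Raw counts plus 0.5 on a log axis in 16 listed bins, with a filled circle for each of the 3 MO-injected embryos and an open square for each of the 4 uninjected ones. The circles lie above the squares in most bins, overlap them in chmp5 and sox10, and lie below or among them in kcnn3.

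The bin with the highest mean raw count was bin E003 of the receptor gene fgfr4. It had 4414, 8554 and 7022 reads in the MO-injected embryos and 71, 56, 78 and 93 in the uninjected ones. The groups were far apart, and the highest uninjected embryo had 93 reads. It is 2097 bases wide and lies on scaffold_3 from 74879002 to 74881098 on the plus strand, in a genome build not given in the sources used here. A retained intron, the first, is recorded for this gene in the authors' deposited table of intron retention. The expression of fgfr4 rose as well, and whether reads of the bin entered that value was not tested. Next came bin E008 of the homeobox gene isl1, with 2101, 1966 and 1977 reads in the MO-injected embryos and 70, 21, 80 and 58 in the uninjected ones. The MO-injected embryos were within a narrow range there. It covers 2148 bases of scaffold_1 from 22743817 to 22745964 on the minus strand. The expression of isl1 was higher too, and whether reads of this bin entered that value was not tested either. The bin of rrm2b, a p53-induced ribonucleotide reductase subunit gene, had 503, 846 and 905 reads in the MO-injected embryos and 16, 5, 34 and 29 in the uninjected ones. No uninjected embryo came near the MO-injected ones, and rrm2b was not listed for expression.

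Further bins with high counts belong to genes of varied function, and their reads in the 3 MO-injected embryos are given against those in the 4 uninjected ones. Bin E014 of slc5a8, a monocarboxylate transporter gene, had 323, 1020 and 543 reads against 10, 8, 21 and 15. The polo-like kinase gene plk3 had 372, 643 and 682 reads against 35, 28, 46 and 49 in bin E016, whose row name in the file is that of a bin of rab15 and which was used by its gene field. Both were apart between the groups. The integrin gene itgb1 was uneven, with 93, 1403 and 1465 reads against 81, 48, 65 and 67. There a single MO-injected embryo stood close to the uninjected ones and the others were far above. The lamin B receptor gene lbr had 266, 313 and 685 reads against 36, 10, 5 and 36, and the folate enzyme gene mthfd1 had 436, 362 and 340 reads against 41, 5, 57 and 36. In the ESCRT gene chmp5 the groups overlapped, with 143, 426 and 417 reads against 39, 72, 198 and 84. The ribosomal protein gene rpl28 had 232, 411 and 473 reads against 43, 9, 21 and 44, without overlap.

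By function, the genes with a listed bin were spread widely. The background is 5.23% of symbols. Splicing and RNA-binding genes had 19 of 306, ribosome and translation 12 of 156, chromatin regulators 18 of 217 and nucleolar genes 11 of 115. Axoneme genes had 12 of 161, DNA replication and repair 12 of 166 and FGF and MAP kinase genes 11 of 88. ETS factors had 6 of 28 and nuclear pore genes 8 of 73. The groups named so far lay above the background. Others lay below it, such as mitochondrial translation and import with 2 of 202, G protein-coupled receptors with 5 of 302 and cytochromes P450 and detoxification with 4 of 186. Of the lists with dense expression changes, the forebrain list had 1 of 54, oocyte genes 2 of 72, the Nodal list none of 58 and the neural crest list 6 of 40, so they lay on both sides of the background. Muscle had 7 of 109, near the background. Longer genes have more bins and genes with more reads are more easily tested, and neither was accounted for in these counts.

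Among developmental regulators, a bin of the kidney and ear factor gene pax8 had 252, 177 and 165 reads against 4, 0, 0 and 4. The groups did not overlap, pax8 was not listed for expression, and the authors' deposited table of intron retention gives it 1 retained intron, the fifth. The vascular and crest factor gene ets1 had 157, 167 and 138 reads against 8, 3, 9 and 6 in bin E011, and the homeobox gene meis1 had 77, 52 and 74 reads against 6, 2, 6 and 5 in bin E003. Both were without overlap. The related gene ets2, which rose in expression, had 74, 121 and 70 reads against 3, 1, 3 and 0 in bin E009. The BMP ligand gene bmp7.1 had 54, 67 and 80 reads against 1, 0, 6 and 9 in bin E010, the Notch ligand gene jag1 54, 36 and 55 reads against 6, 1, 2 and 2 in bin E027 and the gamma-secretase gene psenen 110, 266 and 92 reads against 0, 3, 5 and 0 in bin E010. Each of these was higher in every MO-injected embryo than in any uninjected one. The netrin receptor relative neo1 had 3 bins by the naming rule, of which E024 had 247, 243 and 263 reads against 65, 25, 88 and 59.

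Some bins had no reads at all in uninjected embryos. Bin E003 of the small GTPase gene hras, 6 bases wide, had 66, 90 and 137 reads against 0 in each uninjected embryo. Bin E011 of adssl1, a muscle adenylosuccinate synthetase gene, had 72, 65 and 107 reads against 0 in each uninjected embryo. The endosome gene snx17 had 107, 73 and 36 reads against 0 in each uninjected embryo in bin E010 and the translation initiation gene eif4g3 had 43, 79 and 145 reads against 0 in each uninjected embryo in bin E008. A count of 0 here limits only what was read at this depth, which is unknown, so no limit on the share is given. In the complement genes masp1 and c5 uninjected reads were few, with 284, 387 and 480 reads against 4, 0, 4 and 5 in bin E008 of masp1 and 80, 96 and 133 reads against 0, 2, 3 and 0 in bin E011 of c5. The authors' deposited table of intron retention gives 1 retained intron to each. The microtubule-end gene mapre2, with 1 retained intron in the same authors' deposited table, had 113, 98 and 127 reads against 2, 2, 0 and 0, and the circadian gene per2, with 2 in that table, had 154, 382 and 362 reads against 4, 2, 9 and 10.

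Bins also lay in genes of the general machinery. The spliceosome gene snrnp48 had 71, 157 and 117 reads against 4, 2, 0 and 4 in bin E031, the RNA polymerase II subunit gene polr2c 138, 75 and 80 reads against 0, 0, 2 and 3 in bin E010 and the transcription elongation kinase gene cdk12 87, 99 and 134 reads against 6, 3, 7 and 11 in bin E015. The 3'-end processing gene clp1 had 502, 785 and 1107 reads against 121, 52, 106 and 81. All 4 were without overlap. The replication licensing gene cdc6 had 34, 216 and 208 reads against 1, 0, 1 and 4, where 1 MO-injected embryo was lower than the other 2. The basement membrane gene hspg2 had 131, 72 and 228 reads against 0, 1, 2 and 0 in bin E054. The Arp2/3 gene actr3 had 3 bins by the rule, of which E006 had 289, 189 and 220 reads against 14, 26, 32 and 19.

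A few genes carried many listed bins. The phosphatase gene ctdsp2, which acts on the C-terminal tail of RNA polymerase II and on SMADs, had 22, all without overlap, over 4683 bases. Summed over these bins, it had 3490, 3988 and 4545 reads against 110, 79, 157 and 120. The authors' deposited table of intron retention gives 22 retained introns for it, throughout the transcript. The adaptor complex gene ap3s1 had 20 bins, 18 without overlap, with 166, 102 and 250 reads against 16, 2, 12 and 9. The mitochondrial threonyl-tRNA synthetase gene tars2 had 14, all without overlap, with 440, 859 and 222 reads against 46, 35, 42 and 24. None of these 3 was listed for expression. The ribosomal protein gene rpl23 had 6 bins and 45, 233 and 273 reads against 2, 6, 3 and 0, again without overlap. In the lipase gene pnliprp2, by contrast, only 1 of 8 bins was without overlap, with 44, 10 and 47 reads against 9, 24, 4 and 7, and its expression fell, with a log2 fold change of -2.2, SE 0.414 in the authors' deposited table. A single MO-injected embryo had fewer reads there than the highest uninjected one.

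The tables shared 169 genes, which are 16.2% of the genes with a bin and 8.07% of the genes listed for expression. Of these, 51 were higher and 118 were lower in expression, so that 5.40% of the higher genes and 10.3% of the lower genes have a listed bin. For comparison, at most 13.2% of all genes tested were listed for expression, and 5.23% of the RefSeq symbols have a listed bin. The symbols are not the same set as the genes tested, and the overlap was not tested. A bin can be listed when its own reads rise or when the reads of the rest of its gene fall. In genes that rose, all 85 bins had more reads after MO injection, and the median log2 ratio of raw counts was 4.40. In genes that fell, 149 of 160 bins did, with a median of 1.38, and in genes not listed for expression the median over 1184 bins was 2.75. The same embryos and reads lie behind both tables, so these medians are no independent check. Over the 169 genes the raw ratio and the expression change had a Spearman correlation of 0.708, which was used to read the direction of the expression table and is given as a description. That bins and genes moved together in sign is therefore no result of its own.

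**Figure D5:**
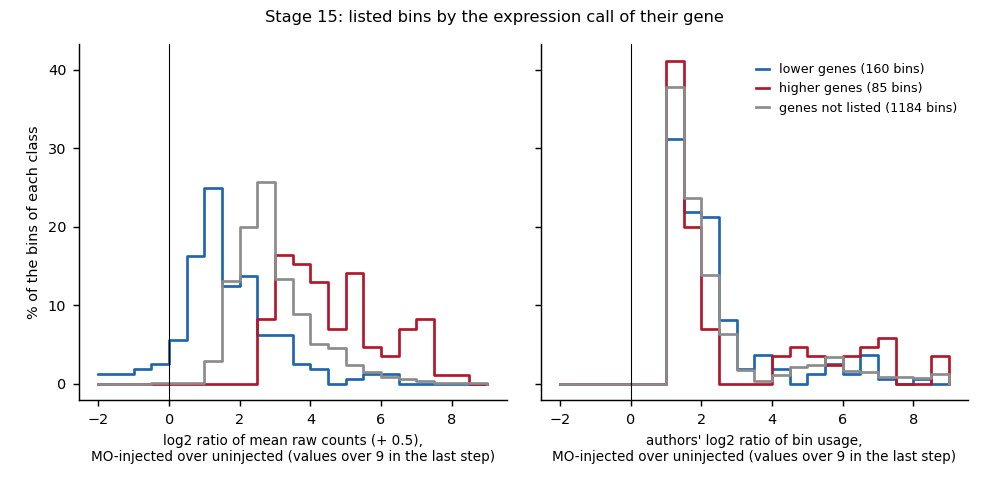
Distribution of the log2 ratio of mean raw counts (left) and of the authors' log2 usage ratio (right), MO-injected over uninjected, as a percentage of the 160 bins in lower genes, 85 bins in higher genes and 1184 bins in genes not listed for expression. The raw ratios of lower genes lie to the left, with a median of 1.38, and those of higher genes to the right, with a median of 4.40, while all usage ratios lie above 1.

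In 12 bins the raw count was lower in MO-injected embryos although usage was higher. Bin E001 of sox10 had 20, 4 and 13 reads against 74, 14, 35 and 34. Bin E004 of kcnn3 had 6, 6 and 12 reads against 11, 18, 15 and 25. The groups overlapped in both, and both genes fell in expression. Not among these 12 were bins of spag17 and acta2, whose log2 ratios of mean raw counts were 1.05 and 0.70. The axoneme gene spag17, which fell strongly, had 2, 4 and 8 reads against 6, 1, 0 and 1 in bin E017. Likewise acta2 had 3, 12 and 3 reads against 3, 4, 7 and 0 in bin E004, and in both of these the few reads overlapped between the groups. At the other end, the receptor gene eda2r had 18, 27 and 35 reads against 0 in each uninjected embryo in bin E003. The gene klf2 had 50, 17 and 32 reads against 1, 0, 1 and 0 in bin E002. The channel gene ano10 had 302, 254 and 492 reads against 23, 35, 12 and 22 in bin E001. In these 3 genes bin and gene were higher together, with no overlap between the groups. The ribosome assembly gene nvl, which fell, had 5, 12 and 14 reads against 0, 0, 3 and 2, higher in every MO-injected embryo. The targeted gene taf15 was in neither table at stage 15, so they give no check of the depletion in RNA.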

How the data were processed

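RNA from single embryos was prepared with Trizol and the low-sample protocol of the TruSeq RNA v2 kit, per the labels' protocols. The labels name single embryos and no clutch, so embryos were taken as replicates. Titles follow more than 1 style, and no value within a style could be computed. TopHat, Bowtie, Cufflinks, Cuffdiff, DESeq and DESeq2 are named without roles in the submitters' processing notes. The aligner settings, genome build, annotation and any use of strand in counting were not given in the sources used here. Overlapping and antisense genes therefore cannot be told apart. The expression table has columns, per the file headers, for mean normalised counts (a signal), a log2 fold change, its SE and a p-value deposited by the authors. The bin table deposited by the authors holds raw counts per embryo, fitted usage scores, a log2 usage ratio and a p-value. Both hold only items past an adjusted p of 0.1 and changes of at least 2-fold, and the bin table only those with more usage in MO-injected embryos. No model was refitted, and adjusted p-values are the authors', over all genes they tested. The number tested was bounded from below by the ratio of adjusted to raw p-values. The deposited bin ratio sets uninjected over MO, so signs were reversed.

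The direction of the expression log2 value was read from the bin counts. No expression values per embryo were used, so no spread was computed, and depth per library is unknown. Raw bin ratios were taken between group means after adding a pseudocount of 0.5. Genes were matched to 15628 protein-coding symbols of RefSeq assembly UCB_Xtro_10.0, used for names and neighbours only. The members and gene lists were chosen with earlier results of these data known. Named genes were, per group and direction, up to 4 of the largest change with a mean normalised count of at least 10, the 15 of highest mean count, and the 8 largest in both tables. Named bins were, per group, up to 3 of the smallest adjusted p with a mean raw count of at least 10, the 15 of highest count, and the 10 genes with most bins. Counting steps were tested on simulated data. Python 3.11.15 with pandas 2.3.3, numpy 2.4.6, scipy 1.17.1 and matplotlib 3.10.9 was used. Alternatives were stricter thresholds, a minimum count, another pseudocount and leaving out each embryo column. Some genes that the rule named are not reported here.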

Additional observations from a re-analysis of the deposited data

Results flagged for a closer look

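Among the 4 uninjected counts of 118 named bins, 9 had a value whose gap to the nearest other exceeded Dixon's critical share of the range for 4 samples. Chance flags about 1 in 20 groups, and counts of 0 and 1 are flagged by a single read. The splicing gene gpkow had 139 reads in column UC3 of bin E002, where the others had 28 to 41. The ectonucleotidase gene entpd3 had 23 reads in UC3 of bin E010 and the others 6 each, and the checkpoint gene topbp1 had 17 in UC3 of bin E001 against 4 to 6. The splicing helicase gene dhx8 was flagged in 2 bins, with 6 reads in UC2 of E005, where the others had 16 to 18, and 20 in UC4 of E006, where the others had 9. The respiratory chain gene ndufa11 had 20 reads in UC1 of bin E003, against 14 or 15. In bin E003 of wnt3a, bin E002 of znf414 and bin E008 of phox2a, UC2 had 0 reads and the others 1 each. The labels tie no column to an embryo, so whether the embryo with a deviating stage description is among these was not tested.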

How the results depend on the processing

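At an adjusted p under 0.01, higher genes numbered 583, bins 893 and genes present in both 83. At a change of at least 4-fold, 344 genes were higher and 372 lower, and at a mean normalised count of at least 100 the numbers were 434 and 506. With a mean raw count of at least 10, 575 bins were left, 510 of them without overlap. The share of higher genes lay between 43.0% and 48.0% under the alternatives run, against 45.1%. The median log2 ratio of raw bin counts was 2.37 with a pseudocount of 1. The authors' deposited usage ratio, with a median of 1.75, is a different quantity and is not compared in size. Leaving out each embryo column in turn gave 1095 to 1204 bins without overlap, against 1079, and a median ratio of 2.58 to 2.81. Dropping a column cannot lower the number of bins without overlap, so that number was not checked in this way. Over 58 gene groups and 174 alternatives, the share of higher genes stayed within its binomial interval in 169. Each alternative is drawn largely from the same genes as the main count, so this is no independent check. The majority direction changed in 4. At an adjusted p under 0.01 these were DNA replication and repair, complement and forkhead genes. At a mean count of at least 10 it was protein kinases. These settings left fewer genes in each group, and why the direction changed was not tested. No paired analysis was possible because the columns tie no value to an embryo and the expression table has no values per embryo. Genes below the authors' thresholds are not in the tables, so no count of genes that did not change was made, and low-count genes rest on wide errors.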

Other observations

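In the order of the RefSeq annotation, 128 pairs of neighbouring genes were both listed, and 81 of these (63.3%) changed in the same direction. With 39.4% of all listed symbols higher, many pairs of unrelated genes would share a direction too. No share for such pairs was computed, so 63.3% is a description and no result about neighbours. Runs of 3 or more neighbours numbered 4. Besides the ventx run, they included the lower genes fas, acta2, stambpl1 and ankrd22, and the lower caveolin genes cav2 and cav1 with the receptor gene met. The pairs were named for their position and not by the rule for named genes. Their log2 fold changes in the authors' deposited table were -1.56 for the death receptor gene fas, -3.02 for acta2, -1.21 for the deubiquitinase gene stambpl1 and -1.66 for ankrd22. The caveolin genes were at -1.41 and -1.99 and met at -1.55 in the authors' deposited table.

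A total of 7 names in the expression table have been turned into calendar dates and could not be assigned to a gene. The 53 genes listed at both stages are 2.53% of the genes listed at stage 15 and 18.2% of those at stage 10. Of all genes tested, at most 13.2% were listed at stage 15. Of the 53 genes, 46 changed in the same direction, with the stage 10 direction also read from bin counts. The stage 10 list holds changes under 2-fold, such as smcr7l with a log2 fold change of 0.394, SE 0.127 in the authors' deposited table. No share of unrelated genes with the same direction was computed. The count columns differed in how often they were the highest of their group: MO3 in 682 bins, MO2 in 401 and MO1 in 249. These raw counts are not scaled for depth, which is unknown, and the column totals over the listed bins stand in the same order.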
